A study of Homo sapiens with 6 samples.

Results

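The accessible chromatin of 10 genes that write, maintain and remove DNA methylation was described in EndoC-βH3 cells, a human pancreatic beta cell line. The genes were DNMT1, DNMT3A, DNMT3B, UHRF1, UHRF2, HELLS, CDCA7, TET1, TET2 and TET3. They held 54 of the 108542 accessible regions in the authors' deposited table. Of these, 16 were promoter regions, which overlap 2 kb on either side of the start of a protein-coding transcript of the gene in GENCODE 44. The other 38 were distal regions, whose midpoint lies within 100 kb of a start site of the gene and nearer to it than to any other coding start site. In the whole table, 20094 regions were promoter regions and 88448 were distal regions.

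ATAC-seq, in which the transposase Tn5 cuts open chromatin and tags it for sequencing, was performed on 100000 cells per library. The study compared senescent cells, which had received 4-hydroxytamoxifen for 3 weeks (3 libraries), with non-senescent control cells (3 libraries). Both groups were of a single line labelled wild type, which was immortalised with transgenes that the drug removes through an inducible Cre recombinase, so drug, transgene removal and senescence went together. The labels number the libraries within a group but do not say whether they came from separate cultures. The value used here is the mean signal, the authors' average over all 6 libraries of the reads in a region after scaling for library size. This mean pools senescent and non-senescent cells, so it gives the level of each region in the line as a whole, with no replicate spread, no depth per library and no difference between the groups. All values are therefore descriptions without a test.

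The regions were checked against markers of the labelled cell type. All 12 beta cell markers listed had a promoter region, as did 78.8% of all coding genes. The mean signals of the 12 ran from 183.5 to 7894 with a median of 1735, and 8 of them lay above the median of all genes. Markers of other cell types had promoter regions too, 2 of 3 for acinar cells (110 and 2101, with none at PRSS1), 2 of 3 for duct (131 and 1059, with none at CFTR) and 2 of 2 for delta cells (195 and 478). Of immune, stroma and endothelium markers, 1 each had a promoter region, with mean signals of 43.2, 142 and 117, and PTPRC, CD3E, PDGFRB and CDH5 had none. The part of other cells in the values of the 10 genes was not tested.

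DNA methylation in mammals sits mostly on the cytosine of CpG dinucleotides. After replication the daughter strand is unmethylated, and UHRF1 recognises the half-methylated CpG and brings in DNMT1, which copies the mark, while HELLS, a chromatin remodeller, and its partner CDCA7 give access to DNA packed in nucleosomes. DNMT3A and DNMT3B place new methylation, and the TET enzymes oxidise methylcytosine as a first step of its removal. Copying is tied to S phase, and E2F factors control many genes of DNA replication.

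Sequences matching E2F motifs were present in the strongest promoter region of 6 of the 10 genes. The strongest promoter region is the one of highest mean signal for a gene, and the letters searched were TTTCCCGC and TTTGGCGC on both strands. The matches were in 4 of the maintenance genes and their relative UHRF2 (DNMT1, UHRF1, UHRF2, HELLS and CDCA7) and in TET1, and none was found in DNMT3A, DNMT3B, TET2 or TET3. Among 9786 strongest promoter regions of like width in the genome, 10.3% held such a match. The 30 bases around the matches are shown because they carry this split between the genes. They read 5′ to 3′ along the gene's strand in hg38, with the E2F letters in capitals.
DNMT1, chr19:10194615-10194644, minus strand, 3 bp upstream of a start site: cccgggctgTTTGGCGCCAAAatggaccgt
UHRF1, chr19:4908956-4908985, 460 bp upstream: gaagGCGGGAAAacgagGCGGGAAAagaca
UHRF1, chr19:4909476-4909505, 8 bp upstream: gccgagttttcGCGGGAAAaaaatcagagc
UHRF1, chr19:4909714-4909743, 227 bp downstream: ctttgcaaaacTTTCCCGCgcggccagccc
UHRF2, chr9:6412642-6412671, 543 bp upstream: attgcggccagGCGGGAAAcgtgttcgcga
HELLS, chr10:94545701-94545730, 73 bp upstream: aaccgcaagctGCGCCAAAtctcgcgcagc
HELLS, chr10:94545769-94545798, 5 bp upstream: gatgacaggatTTTCCCGCgaaggagaagc
CDCA7, chr2:173354796-173354825, 10 bp upstream: tgtgtcccaacGCGGGAAAgacagcccgag
CDCA7, chr2:173355363-173355392, 413 bp downstream: cggcccagcccTTTCCCGCacacaactcgg
TET1, chr10:68561286-68561315, 963 bp downstream: tagggaaacgcTTTGGCGCctgtctccccg

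The DNMT1 window holds 2 overlapping matches that form a palindrome, so the letters were found on both strands. UHRF1 had 4 matches in its whole region, the most of any of the 10 genes. Distances run from the middle of the letters in capitals. In DNMT1, UHRF1, HELLS and CDCA7 a match lay within 10 bp of an annotated coding start site. Those of UHRF2 and TET1 lay 543 and 963 bp away. The DNMT1 letters span their nearest start site, which is not the canonical start but lies 0.327 kb downstream of it. When only 500 bp around the midpoint of each region were searched, matches were present in DNMT1, UHRF1, HELLS and CDCA7. Of such windows at 13813 strongest promoter regions, 4.4% held one. DNMT1, UHRF1 and HELLS then had 2 matches each and CDCA7 had 1. In the RefSeq promoter, from 250 bases before to 50 after the start, matches were present in UHRF1, HELLS and CDCA7 and not in DNMT1, and 3.09% of 15307 promoters held one. A match is a description of the letters in the window and says nothing on binding.

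All 10 genes had at least 1 promoter region, as did 15493 of 19663 coding genes (78.8%). The median mean signal of the strongest promoter region was 744 over the 10 genes, against 840.4 over all genes with a promoter region. Per kb of region, which is the scale used for comparing genes, the medians were 457 and 686, and 3 of the 10 genes (DNMT3A, DNMT1 and TET2) lay above the median of all genes. The order per kb was DNMT3A, DNMT1, TET2, TET3, HELLS, UHRF2, DNMT3B, UHRF1, TET1 and CDCA7. Since there is no replicate spread, it cannot be said which neighbours in this order differ.

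**Figure D1:**
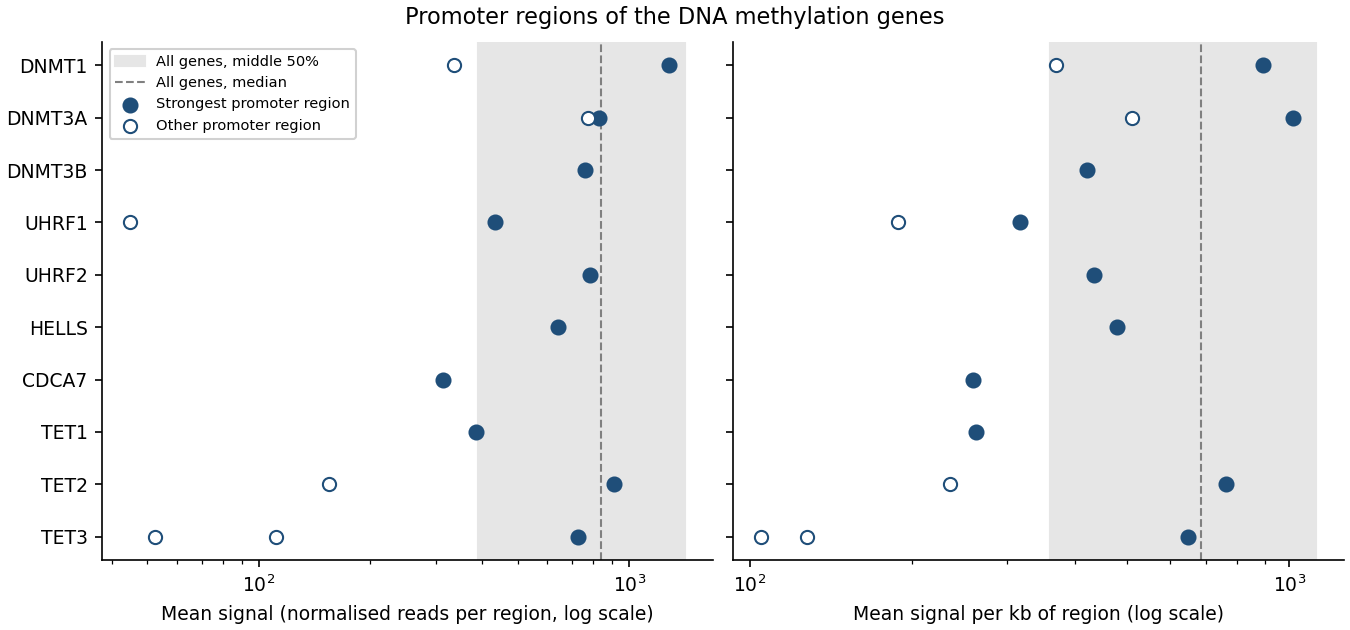
Mean signal of the 16 promoter regions of the 10 genes, per region (left) and per kb of region (right), each on a log axis; filled points are the strongest region of a gene, open points its other promoter regions, and the grey band and dashed line are the middle 50% and the median of all 15493 genes with a promoter region. Per kb, DNMT3A, DNMT1 and TET2 lie right of the median line, and UHRF1, CDCA7 and TET1 lie left of the band.

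Per kb, the promoters of the maintenance genes ranged from above the median of all genes (DNMT1) to well below it (UHRF1 and CDCA7). The promoter region of DNMT1, the enzyme that copies methylation, lay at chr19:10194013-10195442 and had a mean signal of 1279, or 894 per kb. It was at the 64.1 percentile of all genes per kb and covered the 4 start sites of the main group of transcripts, whose longest protein has 1658 residues. DNMT1 had no distal region, in 66.3 kb of sequence nearer to its start sites than to those of other genes and within the limit. When start sites of non-coding transcripts were counted too, 1 region, chr19:10138887-10139538, was assigned to it.

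UHRF1, which guides DNMT1 to newly copied DNA, had a weaker promoter than its enzyme partner. Its strongest region at chr19:4908945-4910317 had a mean signal of 435, or 316.5 per kb, and DNMT1 was 2.83 times as high per kb. A smaller region, chr19:4910828-4911065 over coding exon 2, had a mean signal of 44.8. The single distal region of UHRF1, chr19:4922806-4923627 in an intron, had a mean signal of 243. UHRF2, a relative of UHRF1 that also binds modified DNA, had 1 promoter region of 1803 bp at chr9:6412453-6414255, with a mean signal of 783 or 434.5 per kb, and no distal region in 98.6 kb. UHRF2 and DNMT1 were the members without a distal region, and 67.0% of all coding genes had at least 1.

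HELLS and CDCA7, which act as a remodelling complex, had promoter regions below the median of all genes. For HELLS, chr10:94545157-94546491 had a mean signal of 641, or 480 per kb. For CDCA7, chr2:173354374-173355586 had a mean signal of 314, or 259 per kb, the lowest of the 10 genes on both scales and at the 17.4 percentile of all genes per kb. Under the rule by coding start sites, the distal regions of the partners differed in number. HELLS had 1, chr10:94557529-94557727, with a mean signal of 56.7. CDCA7 had 6, all intergenic, of which 5 lay 46962 to 94243 bp downstream of its nearest start site and 1 lay upstream. The strongest of them, chr2:173448957-173449457, had a mean signal of 361 and was more accessible per kb (720) than the CDCA7 promoter. With start sites of all annotated genes and transcripts competing, HELLS and CDCA7 had 1 distal region each.

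DNMT3A, which places new methylation, had the most regions under the rule by coding start sites. It is read from a long form start and a short form start 90.3 kb apart, and both had a promoter region. The region of the long form, chr2:25342216-25343031, had a mean signal of 828 or 1015 per kb, and contains a start site of transcripts whose longest protein has 912 residues. The canonical start, which also gives 912 residues, lay 291 bp outside its edge. The region of the short form, chr2:25251330-25252841, had a mean signal of 773 or 511.5 per kb, and its transcripts give proteins of up to 723 residues. Per kb the long form region was 1.99 times as high as the short form region, which is the wider of the pair.

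The strongest of all 54 regions was not a promoter region. It lay in an intron of DNMT3A at chr2:25256845-25257630, 4927 bp upstream of the nearest short form start, and had a mean signal of 1287 or 1638 per kb. It was at the 98.0 percentile of all distal regions by mean signal and 1.55 times the long form promoter. Its CpG content was that of a distal region, with a CpG observed/expected ratio of 0.20. The middle 150 bases are shown to set its sparse CpGs, in capitals, beside the promoter of UHRF2, the member whose strongest promoter region had the highest CpG ratio. The UHRF2 stretch ends 49 bp before its first start site.
DNMT3A intron, chr2:25257163-25257312, minus strand, 5 CpGs: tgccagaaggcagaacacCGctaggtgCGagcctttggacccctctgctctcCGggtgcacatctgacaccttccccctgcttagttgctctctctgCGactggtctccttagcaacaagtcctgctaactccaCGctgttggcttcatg
UHRF2 promoter, chr9:6413001-6413150, plus strand, 14 CpGs: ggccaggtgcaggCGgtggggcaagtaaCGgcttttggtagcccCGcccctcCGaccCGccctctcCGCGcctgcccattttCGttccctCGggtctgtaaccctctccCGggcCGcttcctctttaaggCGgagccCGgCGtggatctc

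DNMT3A had 11 distal regions, a number at the 95.7 percentile of all coding genes, whose median was 1. Its sequence within the limit was also long (221.9 kb against a median of 52.4 kb), and per 100 kb it had 4.96 distal regions, at the 73.5 percentile. After the intronic region, the strongest were chr2:25401407-25402325 with a mean signal of 551, chr2:25362002-25362929 with 482 and chr2:25376625-25377458 with 409. The first of these lies in an intron of DTNB, the dystrobrevin beta gene, as do 3 other regions assigned to DNMT3A by distance, and the second holds the start site of the lncRNA ENSG00000289567. When start sites of all annotated genes and transcripts competed, DNMT3A had 2 distal regions, fewer than DNMT3B and TET3 with 3 each. Assignment by distance does not show which gene a region acts on.

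DNMT3B, the other de novo enzyme, had a single, wide promoter region. It lay at chr20:32761804-32763605, with a mean signal of 759.9 or 422 per kb. Its whole 1802 bp held 11 GC boxes (GGGCGG), the most of the 10 genes when whole regions of unequal width are counted. In the middle 500 bp of the strongest promoter regions, TET2 had the most, with 7, and DNMT3B had 2. Its later start sites, from 32779852 to 32780324, give proteins of 780 to 845 residues and had no region within 2 kb. The nearest lay 2081 bp away at chr20:32777129-32777771 and had a mean signal of 68.8. Its 3 distal regions were all intronic, and the strongest, chr20:32789839-32790492, had a mean signal of 214.

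The TET genes differed in where their signal lay. TET1 had 1 promoter region, chr10:68560229-68561697, with a mean signal of 386 or 263 per kb, at the 17.8 percentile of all genes per kb. A distal region in its own intron, chr10:68596082-68597080, was stronger, with a mean signal of 650.4 or 651 per kb, and stood at the 93.6 percentile of all distal regions. A neighbouring intronic region, chr10:68600084-68600710, had a mean signal of 357, or 569.8 per kb.

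TET2 showed the reverse order. Its promoter region, chr4:105146013-105147201, had a mean signal of 908 or 764 per kb, the highest per kb of the TET genes. A second promoter region downstream, chr4:105147421-105148076, had a mean signal of 154 and a lower CpG ratio (0.42 against 0.81). All 5 distal regions of TET2 lay in its introns and were weaker than both of its promoter regions, with mean signals from 16.1 to 117. The strongest of the 5 stood at the 62.2 percentile of all distal regions.

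TET3 had 3 promoter regions, the most of the 10 genes, and its later start was the more accessible. The canonical start, which gives a protein of 1795 residues, lay in chr2:73984294-73985165, with a mean signal of 111 or 128 per kb. The later start, 17.8 kb downstream, gives 1702 residues and lay in chr2:74002145-74003266, with a mean signal of 727 or 648 per kb. The later region was 5.08 times as high per kb, although the first was the richer in GC (78.7% against 65.9%). The third region, chr2:73985553-73986052, had a mean signal of 52.5. A narrow distal region 2369 bp upstream of the later start, chr2:74000231-74000456, reached 647 per kb. The 120 bases before each start are shown because both are CpG dense while their signal differs, with CpGs in capitals.
TET3 first start, chr2:73984790-73984909, plus strand, 22 CpGs: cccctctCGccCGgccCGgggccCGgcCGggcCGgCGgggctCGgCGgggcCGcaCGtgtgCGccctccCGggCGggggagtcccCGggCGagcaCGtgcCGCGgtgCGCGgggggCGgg
TET3 later start, chr2:74002593-74002712, plus strand, 16 CpGs: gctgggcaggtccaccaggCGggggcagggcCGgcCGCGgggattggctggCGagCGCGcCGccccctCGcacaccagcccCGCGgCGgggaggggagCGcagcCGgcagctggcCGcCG

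**Figure D2:**
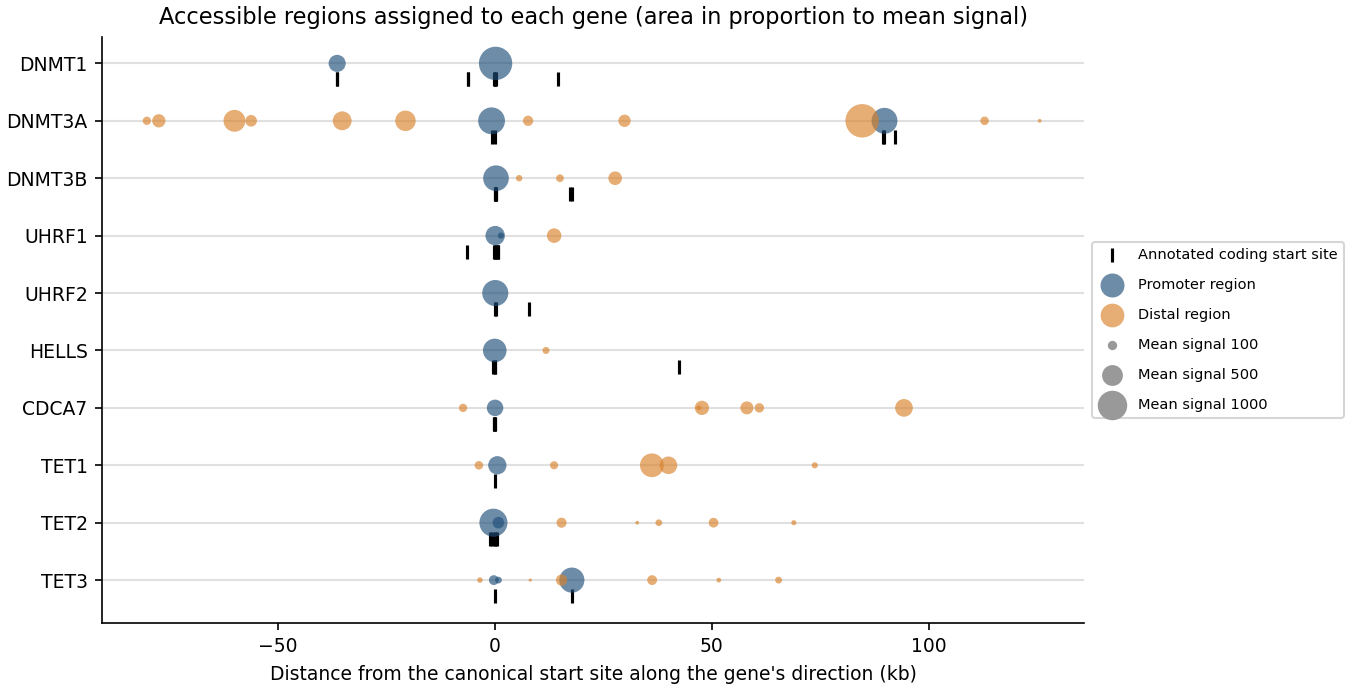
Regions of each gene by distance from its canonical start site along the direction of the gene (kb); blue circles are promoter regions, orange circles distal regions, with area in proportion to the mean signal, and black ticks below each line are annotated coding start sites. The intronic DNMT3A region next to the short form start at about 90 kb is the largest orange circle, and the larger TET3 promoter region sits at the later start.

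The annotated coding start sites of the 10 genes form 24 groups when those within 500 bp are joined. A region lay within 2 kb of 18 groups. The 6 without one were, besides the later DNMT3B starts, a UHRF1 start at 4903080 that gives 793 residues, a HELLS start at 94588229 with 431 residues, a UHRF2 start at 6421031 with 112 residues, and 2 groups of DNMT1, at 10180381 and from 10201192 to 10201197, whose proteins have at most 255 residues. For these start sites the table lists no region within the window, which does not show that they were closed in every library. DNMT1 also had a far upstream start, 36.1 kb from the main ones, whose transcripts give 94 to 119 residues. Its region, chr19:10230780-10231691, had a mean signal of 337 or 369 per kb and is shared with the promoter of S1PR2, a receptor for sphingosine 1-phosphate. It was the only one of the 16 promoter regions shared with another coding gene, and 10.96% of all promoter regions were shared.

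Most of the 38 distal regions lay within the genes themselves, and this share was not computed over all distal regions. Of the 38, 25 were in introns, 11 were intergenic, 1 was in a coding exon of TET1 and 1 in an untranslated exon of DNMT3A, and 23 lay inside the gene to which they were assigned. Their median mean signal was 105, against 88.4 for all distal regions within 100 kb of a coding start site. The order turned per kb of region, with medians of 178.5 and 186.6, and the median widths were 553.5 and 487 bp. Per 100 kb of sequence within the limit, the median was 3.22 distal regions over the 10 genes and 2.52 over all genes. The spread among the genes was wide, from 0 in DNMT1 and UHRF2 to 7.87 in DNMT3B, 5.40 in TET3 and 5.39 in TET1.

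The promoters of genes that handle CpG methylation were themselves CpG rich, as most promoters are. The CpG observed/expected ratio compares the number of CpGs with that given by the C and G content, and a value over 0.6 is often used for CpG islands. All 10 strongest promoter regions exceeded 0.6, as did 81.4% of those of all genes. The lowest was DNMT3A at 0.66 and the highest UHRF2 at 0.91. The median was 0.73 over the 10 genes and 0.75 over all genes. GC content was lowest in HELLS (55.0%) and highest in UHRF1 (72.6%), with a median of 66.3% against 62.9%. The weakest promoter regions of TET2, TET3 and UHRF1 and the short form region of DNMT3A lay below 0.6. Among the 38 distal regions, 3 exceeded it (2 of DNMT3A and 1 of CDCA7), and 5.96% of all distal regions did.

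**Figure D3:**
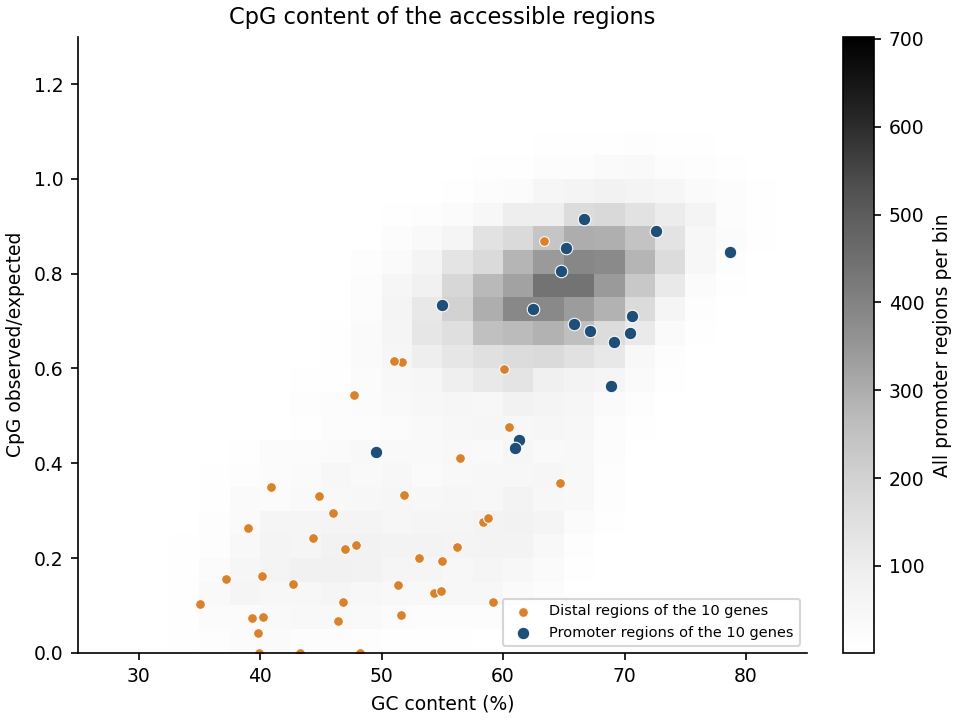
CpG observed/expected ratio against GC content (%) of the 16 promoter regions (blue) and 38 distal regions (orange) of the 10 genes, over a grey grid that counts all 20094 promoter regions per bin. Most blue points lie in the dark part of the grid, with a ratio over 0.6, and most orange points lie below it.

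Other motifs were spread over the genes in another way than the E2F letters. The GC box (GGGCGG), bound by SP factors, was in all 10 strongest promoter regions and in 92.2% of those of like width in the genome. CCAAT, the NFY motif, was in DNMT1, DNMT3B, HELLS, TET3 and UHRF1, with a share of 66.0% in the genome. TTTGAA or TTCGAA, the CHR element found in promoters of mitotic genes, was in DNMT3B, HELLS, TET2 and UHRF2, with a share of 37.1%. The NRF1 motif (GCGC, any 2 bases, GCGC) was in DNMT1, UHRF1 and UHRF2 (25.6% in the genome). CCGGAAG, an ETS motif, was in DNMT1 (32.6%). HELLS was the only gene with E2F, CHR, NFY and GC box letters together in its whole region. In the middle 500 bp, CHR letters were in none of the 10 genes (13.6% of all) and CCAAT was in HELLS, TET3 and UHRF1 (36.7% of all).

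**Figure D4:**
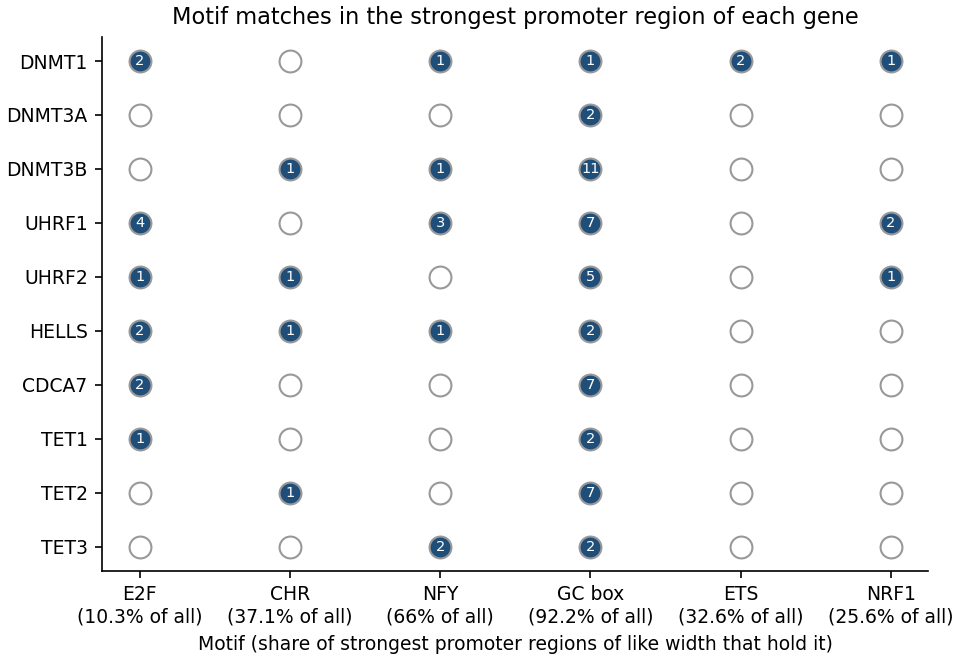
Matches of 6 motifs (columns) in the strongest promoter region of each gene (rows); filled circles hold the number of matches, open circles mark none, and the percentage under each motif is its share among 9786 strongest promoter regions of like width. The E2F column is filled for DNMT1, UHRF1, UHRF2, HELLS, CDCA7 and TET1, and the GC box column for every gene.

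Motifs of factors found in islet cells were searched in 500 bp around the midpoint of each of the 38 distal regions. For regions narrower than 500 bp, this window also takes in sequence outside the region. CAGATG, an E-box of NEUROD1, was in 18 windows, and 42.2% of such windows at all distal regions held it. TGTTTAC, a FOXA motif, and TGANTCA, an AP-1 motif, were in 4 windows each (13.2% and 16.8% of all). TGCTGAC, the core of a MAF motif, was in 3 (10.3% of all), and the CTCF motif was in none (2.29% of all). A single distal region held E2F letters (0.759% of all), chr2:25418877-25419709 in an intron of DTNB, assigned to DNMT3A.

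The 10 genes were set beside 24 other genes of DNA methylation, such as readers, repair enzymes and suppliers of the methyl donor. Of these 23 had a promoter region and DNMT3L, a cofactor of the DNMT3 enzymes in germ cells, had none. Their median mean signal was 1418 against 840.4 for all genes, and 14 lay above the latter. Per kb their median was 608, below the 686 of all genes, and 11 lay above it. By mean signal per region the strongest were PCNA, the replication clamp, with 3409 (1866 per kb), AHCY, which clears the product of methyl transfer, with 3007 (1407 per kb), and GADD45A, a stress response gene, with 3006 (1497 per kb). Those per kb values were all above the 1015 of DNMT3A, the highest of the 10 genes. The order per kb of these same regions, the strongest of each gene by mean signal, was another. It was led by MBD4, a reader with glycosylase activity, with 2617, which was named after its value was seen. Among all promoter regions of these genes, the highest value per kb was 2801, in PCNA. The weakest with a region, again by mean signal, were SMUG1, USP7, which stabilises UHRF1 and DNMT1, and MBD3, with 399.5, 329 and 172.

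The number of distal regions depended on the rule, with 38 reported, 29 at a limit of 50 kb and 14 by start sites of any annotated gene. The regions closest to its limits were these. Just inside the 100 kb limit, the CDCA7 region 94243 bp from a start site had a mean signal of 361, and the nearest region beyond it, chr2:173463090-173463312 at 108237 bp, had 14.8. The promoter region whose edge lay farthest from a start site was that of TET3 at 643 bp, with a mean signal of 52.5, and the distal region with the nearest edge was that of DNMT3B at 2081 bp, with 68.8.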

How the data were processed

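ATAC-seq was done by the authors on 6 EndoC-βH3 libraries, 3 senescent and 3 non-senescent, grouped by the labels. Per the methods of the study, reads were trimmed with Trim Galore and aligned to hg38 with Bowtie2. Mitochondrial reads and duplicates (Picard) were removed, reads were shifted for the transposase offset with deepTools, and peaks came from MACS2. Versions are not given in the sources used here. The signal in the deposited table is the authors' mean over all libraries of counts in the union of peaks, scaled by DESeq2 size factors. The table also holds 5 columns of the authors' comparison (log2 fold change, its standard error, test statistic, p-value and adjusted p-value), which were not used, and 0 columns of single libraries. The planned count test between the groups was therefore not run, and the table does not give the depth of each library, for which the study states only a range.

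Starts of regions were read as zero-based and 1 was added. No region passed a chromosome end. Genes and start sites came from GENCODE 44. For each region width, signal per kb, GC content, CpG ratio and exact motif matches were computed with Python 3.11.15, numpy 2.4.6 and pandas 2.3.3, after the code was tested on simulated data. Percentiles are among all genes or regions of the same class.

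The members and lists were chosen with earlier results of these data known. Named genes were the 10 members, genes sharing or holding their regions, and the 3 strongest and 3 weakest of the other DNA methylation genes by mean signal. DNMT3L, MBD4 and the cell type markers without a region were named outside this rule, after their values were seen. The E-box, FOXA, AP-1, MAF and CTCF motifs and 2 alternatives were added after the data were seen, as were the sequences shown. The alpha cell markers are not reported here.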

Additional observations from a re-analysis of the deposited data

How the results depend on the processing

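Of 14 alternative settings, 12 moved their result by at most 1.5 times. Promoter windows of 1 and 0.5 kb, start sites of all transcripts and a signal minimum of 50 gave 15 to 18 promoter regions (16 reported). A limit of 50 kb, or the signal minimum, gave 29 distal regions (38 reported), and the edge in place of the midpoint gave 38. Counting start sites of any annotated gene, non-coding ones included, and non-coding transcripts of the 10 genes, gave 14 distal regions, of which 13 were among the 38 and 1, of DNMT1, was not. DNMT3A then had 2 and no longer the most. The median signal of the strongest promoter regions was 772 when all promoter regions of a gene were summed (744 reported), and the median percentile was 32.6 per kb (44.8 reported). Per kb, 3 genes lay above the median of all genes and by mean signal 2. The median CpG ratio was 0.86 in the middle 500 bp (0.73 reported). E2F letters were in 4 genes in the middle 500 bp (6 reported) and in 3 (CDCA7, HELLS and UHRF1) in RefSeq promoters, from 250 bases before to 50 after the start, a shorter window chosen after seeing the data, where 3.09% of 15307 promoters held them.

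No paired analysis was possible because values of single libraries were not analysed here, only means over all of them. The replicate block, TMM against size factors, the count filter and leaving out each library were not run for the same reason.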
